A study of Rattus norvegicus with 48 samples.

Results

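The comparison described here is that of ethanol-fed (EtOH) with carbohydrate-fed (CHO) rats 6 h after 70% partial hepatectomy (PHx), for every miRNA with deposited values. Its members were taken from the sample titles, as the untreated animals of either diet at 6 h, and they are 6 of the 48 animals, 3 per diet. The animals were male Sprague-Dawley rats, 8 to 14 weeks old at the start, held for 6 to 8 weeks on a pair-fed liquid diet in which 36% of calories came from ethanol in the EtOH-fed group and from carbohydrate in the CHO-fed group. All 6 animals had the surgery and none was injected. RNA came from whole remnant liver, so a lower miRNA level may mean fewer cells of a type or less of the miRNA per cell, and these cannot be told apart. Diet was the only labelled difference between the groups, but the CHO-fed animals carry the numbers 4_1 to 4_3 and the EtOH-fed animals 4_4 to 4_6, and what this numbering marks is not stated. All values printed for single animals follow that order.

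miRNAs are short RNAs that guide an Argonaute protein to messenger RNAs, mostly through pairing of the seed, bases 2 to 8 from the 5′ end, and lower the stability and translation of those messages. In the liver, miR-122 is the dominant hepatocyte miRNA and miR-21 is known to increase after injury and hepatectomy. The first hours after PHx are the priming phase, in which remaining hepatocytes leave quiescence before they replicate DNA, and chronic ethanol intake is known to delay liver regeneration. The question put by the comparison is whether the remnant liver of an ethanol-adapted animal holds other miRNA levels than that of its control in this early phase.

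No miRNA passed the test for diet at 6 h. Of 143 miRNAs, 0 were called by limma at a Benjamini-Hochberg adjusted p under 0.05 (0% of those tested), and 13 had an unadjusted p under 0.05, 6 of them higher in EtOH-fed animals (4.20% of the 143) and 7 lower (4.90%). miR-365 came closest, at 1.66-fold the CHO-fed level and an adjusted p of 0.0753. Behind it were miR-378, miR-30a, miR-210, miR-409-3p, and miR-103 on the higher side and miR-350, miR-598-5p, miR-455, miR-582, miR-326, miR-743b, and miR-3561-3p on the lower side. The 15 miRNAs with the smallest p are described one by one, these 13 with miR-324-5p and miR-181a.

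The mature sequences of the miRNAs on the higher side are printed because their seeds decide which messages each can pair with, and because a shared seed is a reason to read several together. They come from RefSeq (GRCr8), 5′ to 3′, with the seed in capitals. miR-107 is added as the near-identical relative of miR-103.
miR-365: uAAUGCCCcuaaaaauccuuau
miR-378: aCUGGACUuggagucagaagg
miR-30a: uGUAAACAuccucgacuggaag
miR-210: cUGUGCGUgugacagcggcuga
miR-409-3p: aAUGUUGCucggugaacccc
miR-103: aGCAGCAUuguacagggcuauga
miR-107: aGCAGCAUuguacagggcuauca
miR-324-5p: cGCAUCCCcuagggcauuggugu
Among these, only miR-103 and miR-107 have a seed in common. A probe for one of that pair may take signal from the other, so their separate values are uncertain.

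The miRNAs on the lower side follow in the same form. RefSeq's table gave no entry for miR-598-5p, and no arm was assigned to miR-455 and miR-743b, so these are named only. The labels give no arm for the other bare names in either list. The sequence printed for such a name is that of the arm it stood for in older miRNA registries, and the probe may read another.
miR-350: uUCACAAAgcccauacacuuucac
miR-582: uACAGUUGuucaaccaguuacu
miR-326: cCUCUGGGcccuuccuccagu
miR-3561-3p: uAUCCAGGguagacacucaga
miR-181a: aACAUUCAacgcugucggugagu
No seed occurs more than once in this list or in both lists.

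miR-365, which lies beside a miR-193 gene and is known from fat cell differentiation, had the largest difference of all 143 miRNAs on the higher side. Its levels were 11.75, 11.71, and 12.18 log2 CPM (counts scaled to library size, as CPM, on a log2 scale) in CHO-fed animals and 12.61, 12.55, and 12.68 in EtOH-fed animals. Every EtOH-fed animal lay above every CHO-fed animal, and the EtOH-fed animals were close together, at 12.61 ± 0.07 log2 CPM (SD, n = 3) against 11.88 ± 0.26 (SD, n = 3). The difference was 0.73 on the log2 scale, with a 95% confidence interval of 0.36 to 1.11 and an unadjusted p of 0.000527 by limma. The CHO-fed animal 4_3, the highest of its group, weighed on the call: without it the adjusted p was 0.0241, while leaving out any 1 of the 5 other animals raised it to between 0.157 and 0.537. The probe is well counted, with 314 to 1086 counts per animal. Mature miR-365 lies at chr10:65184271-65184292 on the plus strand of GRCr8. The probe named miR-193 differed by only 0.07 (95% confidence interval -0.40 to 0.54), with overlapping groups. Whether it reads the neighboring gene was not checked.

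miR-378, which is made from an intron of the coactivator gene Ppargc1b and is known in hepatic energy metabolism, measured 11.28, 11.55, and 11.33 log2 CPM in the CHO-fed group and 11.71, 12.04, and 11.93 in the EtOH-fed group. The groups did not overlap, and the difference was 0.51 (95% confidence interval 0.08 to 0.93, limma adjusted p = 0.470). miR-103, which sits in an intron of a pantothenate kinase gene and with miR-107 is known to act on insulin sensitivity of the liver, measured 9.05, 8.996, and 8.69 log2 CPM in the CHO-fed group and 9.52, 9.10, and 9.34 in the EtOH-fed group. These groups were also apart, by a difference of 0.41 (0.06 to 0.75), although the nearest animals of the 2 diets were only 9.05 and 9.10. miR-107 itself was 0.16 higher in EtOH-fed animals, with an interval of -0.20 to 0.52 and overlapping groups.

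miR-210, the miRNA best known for its induction by hypoxia, measured 9.32, 9.19, and 9.61 log2 CPM in the CHO-fed group and 9.74, 10.07, and 9.67 in the EtOH-fed group. The EtOH-fed animals were all above, by 0.45 on average (95% confidence interval 0.04 to 0.86, limma adjusted p = 0.478). miR-30a, of a family known to restrain autophagy through beclin 1, measured 9.53, 9.57, and 9.92 in the CHO-fed group and 10.53, 10.10, and 9.86 in the EtOH-fed group. Here the groups overlapped, since the lowest EtOH-fed animal fell below the highest CHO-fed one, and the difference of 0.49 had an interval of 0.07 to 0.90 and was 0.31 without the EtOH-fed animal 4_4. Of the 5 members of the miR-30 family, 4 were higher in EtOH-fed animals and 1, miR-30c, was lower by 0.02, with a median of 0.12 beside -0.09 over all 143 miRNAs.

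miR-409-3p, 1 of the many miRNAs of the imprinted Dlk1-Dio3 locus, measured 8.60, 8.52, and 8.18 log2 CPM in the CHO-fed group and 8.73, 9.10, and 8.77 in the EtOH-fed group, a difference of 0.43 (95% confidence interval 0.03 to 0.84). It was counted 35 to 73 times per animal. miR-324-5p, known to target the Hedgehog factor Gli1, differed by as much, 0.43, but its groups overlapped and its interval of -0.02 to 0.88 included 0. Without the CHO-fed animal 4_3 it was 0.26.

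On the lower side, miR-455, which comes from the collagen gene Col27a1 and is known from cartilage, measured 8.24, 7.79, and 8.32 log2 CPM in the CHO-fed group and 7.72, 7.28, and 7.75 in the EtOH-fed group. The groups did not overlap, and the difference was -0.54 (95% confidence interval -0.99 to -0.08, limma adjusted p = 0.470). miR-582 measured 8.43, 8.04, and 7.56 in the CHO-fed group and 7.25, 7.46, and 7.42 in the EtOH-fed group, and miR-326, from an intron of the arrestin gene Arrb1, measured 8.96, 8.81, and 8.55 against 7.93, 8.53, and 7.92. For both, all EtOH-fed animals were below all CHO-fed animals, by means of -0.63 and -0.65. The gap was narrow, and in miR-326 the nearest animals differed by 8.55 to 8.53.

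miR-743b, of an X-linked family known mainly from testis, measured 8.90, 8.78, and 8.58 log2 CPM in the CHO-fed group and 7.90, 8.53, and 7.69 in the EtOH-fed group, and its difference of -0.71 had a wide interval of -1.41 to -0.01. miR-598-5p had the lowest difference of all, also -0.71 (-1.25 to -0.18), from 8.79, 8.67, and 7.88 against 7.55, 7.91, and 7.75, and its groups overlapped because the CHO-fed animal 4_3 was among the EtOH-fed values. miR-350, at 8.52, 8.30, and 8.77 against 7.79, 8.35, and 7.86, overlapped through the EtOH-fed animal 4_5, and so did miR-3561-3p, at 9.08, 8.97, and 8.45 against 7.46, 8.79, and 8.33. Their differences were -0.53 and -0.64, the latter -0.28 without the EtOH-fed animal 4_4 and -0.94 without 4_5.

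miR-181a, known for its part in lymphocyte development, stood apart from the others on this side because it is abundant, with 531 to 830 counts per animal. Its levels were 12.62, 12.86, and 12.64 log2 CPM in the CHO-fed group and 12.14, 12.47, and 12.32 in the EtOH-fed group, without overlap. The difference was -0.40, and its interval of -0.81 to 0.02 just included 0 (limma adjusted p = 0.579).

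**Figure D1:**
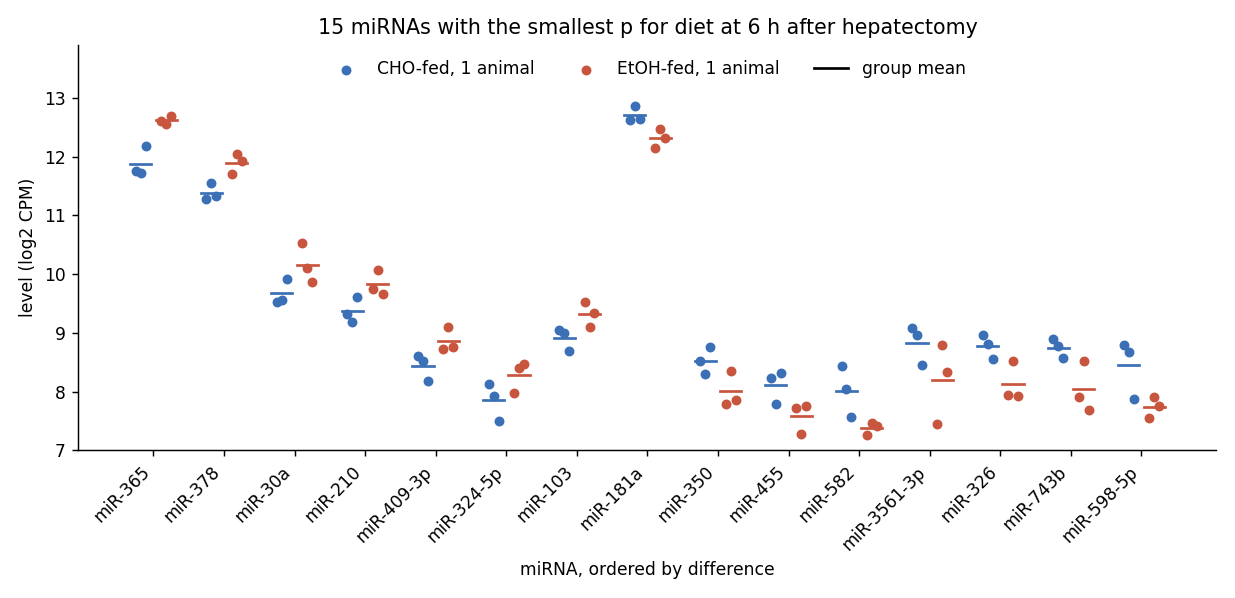
Level (log2 CPM) of the 15 miRNAs with the smallest p for diet at 6 h, ordered by difference; each point is 1 animal, blue for CHO-fed and red for EtOH-fed, and each bar a group mean (n = 3). The EtOH-fed points of miR-365 lie at 12.55 to 12.68, above all CHO-fed points at 11.71 to 12.18, while those of miR-350, miR-598-5p and miR-3561-3p overlap the CHO-fed points.

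The 7 miRNAs on the lower side were all weakly counted, with 14 to 56 counts per animal, whereas the 6 on the higher side had 35 to 1086. That side was mixed, from 35 to 73 for miR-409-3p and 48 to 127 for miR-103 up to 314 to 1086 for miR-365. With the 143 miRNAs split at their median level, the 71 dimmer ones had a median difference of -0.12. They held all 7 of the lower miRNAs and 2 of the 6 higher ones. The 72 brighter ones had a median of -0.01 and held none of the lower miRNAs and 4 of the higher ones. Total counts overlapped between the diets and were higher on average in EtOH-fed animals. They were 87009, 87256, and 134618 in CHO-fed animals and 196972, 109462, and 97827 in EtOH-fed animals. With the log10 of the total count as a covariate, the 7 differences lay between -0.56 and -0.41, and that of miR-365 was 0.74. Several shrank: miR-743b from -0.71 to -0.44, miR-3561-3p from -0.64 to -0.41, miR-598-5p from -0.71 to -0.49, and miR-326 from -0.65 to -0.42. The others moved less, miR-582 from -0.63 to -0.52, miR-455 from -0.54 to -0.52, and miR-350 from -0.53 to -0.56. That of miR-365 was 0.73 without the covariate. The part of the total counts in the lower values was not tested beyond this covariate.

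**Figure D2:**
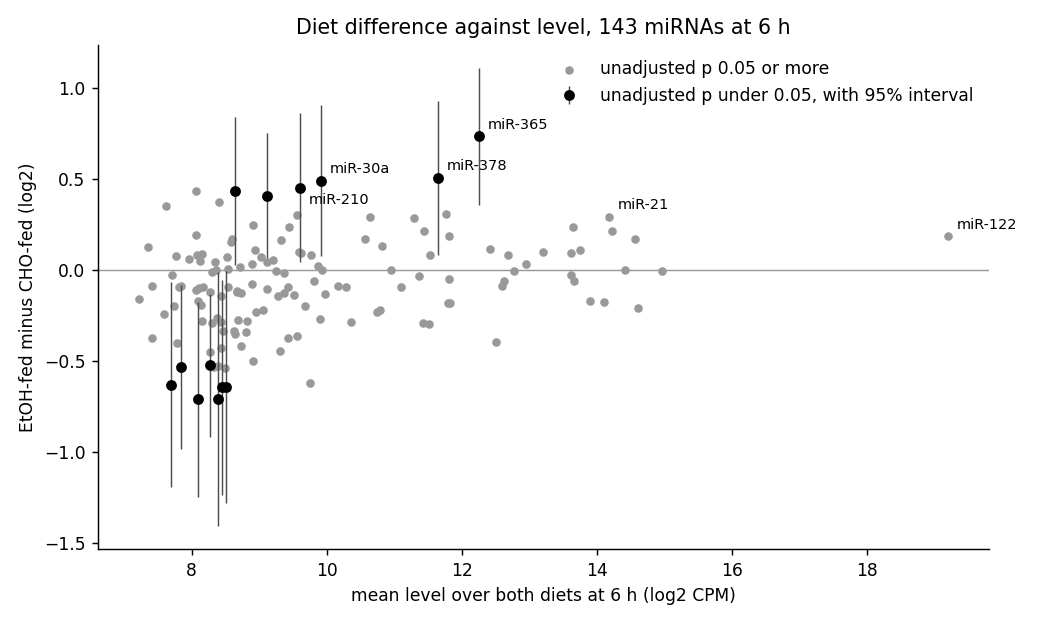
Level in EtOH-fed minus CHO-fed animals at 6 h (log2) against the mean level over both diets (log2 CPM) for 143 miRNAs; black points have an unadjusted p under 0.05 and carry their 95% confidence interval, grey points do not. The 7 black points below 0 lie among the weakly measured miRNAs, and miR-365, at 0.73, is the highest point.

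Over all miRNAs, 55 were higher and 88 lower in EtOH-fed animals, with a median difference of -0.09 and a range of -0.71 to 0.73 on the log2 scale. With 1 animal left out the median was -0.11 to -0.03 (-0.03 without the EtOH-fed 4_6, -0.04 without 4_4, and -0.05 without the CHO-fed 4_3), so family medians are read against it with that margin. The spread among animals of a group was as large as most differences, with a median SD of 0.24 in the CHO-fed group and 0.21 in the EtOH-fed group. The median standard error of a difference was 0.23. The 95% confidence interval lay within 1 on the log2 scale in both directions for 129 of 143 miRNAs and within 1.5-fold in both directions for 52. For the 14 others a difference of 1 was inside the interval, so these data do not bound the effect of diet on them that far.

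All 3 EtOH-fed animals were above all 3 CHO-fed animals for 7 miRNAs (4.90% of those tested) and below them for 13 (9.09%). The first were miR-365, miR-378, miR-210, miR-103, miR-409-3p, miR-148b-3p, and miR-24. The second were miR-17-5p, miR-19a, miR-20a with miR-20b-5p, miR-32, miR-181a, miR-326, miR-331, miR-374, miR-451, miR-455, miR-582, miR-743b, and miR-3594-5p. miR-32 is in that list by a margin too small to read, its nearest animals measuring 8.20 on both diets. The margin of the miR-20a and miR-20b-5p probe was also very small, at 11.840 and 11.833.

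The miRNA the study is about, miR-21, was 0.29 higher in EtOH-fed animals at 6 h, and this was within the spread. The miR-21 levels were 13.66, 14.02, and 14.40 log2 CPM in the CHO-fed group and 14.68, 14.33, and 13.94 in the EtOH-fed group, so the groups overlapped through most of their range, and the interval ran from -0.31 to 0.90 (limma adjusted p = 0.786). The value rested on single animals, at 0.11 without the CHO-fed 4_1 or the EtOH-fed 4_4 and 0.48 without the CHO-fed 4_3 or the EtOH-fed 4_6, and was 0.06 with the log10 of the total count as a covariate. Its mature sequence is shown for its seed, which none of the miRNAs printed above has.
miR-21: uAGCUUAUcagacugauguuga
miR-122, which represses genes of the fetal liver and supports cholesterol metabolism, took 57.74% to 60.28% of all counts in the CHO-fed group and 58.36% to 64.66% in the EtOH-fed group. The miR-122 difference was 0.19 (-0.19 to 0.56), 0.07 without the EtOH-fed 4_5 and 0.36 without the EtOH-fed 4_6, and the other hepatocyte markers, miR-192 and miR-194, were 0.08 and 0.23 higher with overlapping groups. The tissue was liver by these markers.

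Among miRNAs tied to proliferation, the miR-17/92 and miR-106b clusters, which are driven by MYC and E2F and favor entry into the cell cycle, had all 7 measured probes lower in EtOH-fed animals. None of the 7 passed the test, and 0 had an unadjusted p under 0.05, beside 13 of all 143. Their median was -0.14 beside -0.09 over all miRNAs, where 88 of 143 were lower. They are shown because they fall into few seeds, so that several of them can act on the same messages.
miR-17-5p: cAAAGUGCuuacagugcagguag
miR-20a: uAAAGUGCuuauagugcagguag
miR-20b-5p: cAAAGUGCucauagugcagguag
miR-106b: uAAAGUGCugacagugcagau
miR-93: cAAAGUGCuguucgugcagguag
miR-19a: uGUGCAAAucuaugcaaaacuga
miR-19b: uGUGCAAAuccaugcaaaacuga
miR-25: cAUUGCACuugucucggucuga
The first 5 share a seed, as do miR-19a and miR-19b, and probes for such close relatives may share signal. miR-20a and miR-20b-5p are read by 1 probe.

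Within this group miR-17-5p measured 10.89, 10.95, and 10.87 log2 CPM in the CHO-fed group and 10.56, 10.79, and 10.70 in the EtOH-fed group. All EtOH-fed animals were lower, by 0.22 on average, but the interval from the shared spread was -0.61 to 0.16. The probe for miR-20a and miR-20b-5p measured 11.84, 11.92, and 11.99 against 11.71, 11.83, and 11.66, also without overlap, for a difference of -0.18 (-0.60 to 0.24). The nearest animals of the 2 diets on that probe were only 11.840 and 11.833. miR-19a had the largest difference of the group, -0.54, and also the largest standard error of all 143 miRNAs, 0.49, while miR-25 had the smallest, -0.06. The miR-15/16 family, known to hold cells out of the cycle, was mixed, with 3 members higher and 2 lower, a median of 0.05, and values from -0.08 for miR-195 to 0.37 for miR-497. The let-7 family, with 3 higher and 5 lower and a median of -0.02, did not lean further than the whole panel.

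Other families had the following counts, with no member called in any. The relatives miR-148b-3p and miR-152 were both higher in EtOH-fed animals, by 0.30 and 0.29. Both miR-26 miRNAs were lower, with differences of -0.37 for miR-26a and -0.14 for miR-26b. So were miR-101a and miR-101b, at -0.16 and -0.29, and the relatives miR-130a and miR-301a, at -0.06 and -0.09. In the miR-99/100 and miR-125 group 4 of 5 were lower, with a median of -0.18 and the lowest value in miR-99b, -0.30. The miR-29 family, which represses collagen genes, had 1 member higher and 2 lower and values within -0.05 to 0.09, and the miR-23/27/24 clusters had 3 higher and 2 lower, within -0.09 to 0.13.

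Of 9 measured miRNAs widely written about in alcohol-fed liver, 6 were higher and 3 lower, with a median of 0.08, from miR-181a at -0.40 to miR-199a-3p at 0.31. Of these 9, 0 had an unadjusted p under 0.05, beside 13 of all 143. Of 9 measured miRNAs known from regenerating liver, 6 were higher and 3 lower, with a median of 0.06, from miR-221 at -0.54 to miR-378 at 0.51. In this list 1, miR-378, had an unadjusted p under 0.05. miR-221, which favors hepatocyte proliferation, measured 8.24, 8.52, and 9.04 log2 CPM in the CHO-fed group and 7.46, 8.09, and 8.64 in the EtOH-fed group, with overlap and an interval of -1.18 to 0.11. Of 14 miRNAs known to increase when stellate cells are activated, 6 were higher and 8 lower (median -0.02), and of 21 known to decrease, 10 were higher and 11 lower (median -0.01). Each of these stellate cell lists had 1 miRNA with an unadjusted p under 0.05, miR-210 in the first and miR-30a in the second. These lists share members with the families above.

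The diet differences of red blood cell miRNAs had the largest gap of all 143 miRNAs between 6 h and 24 h. The F test over the contrasts of 6 h with 0, 24, and 72 h called neither of them (limma adjusted p = 0.235 for miR-451 and 0.701 for miR-144). miR-451 and miR-144, which are made from neighboring hairpins in erythroid cells, measured lower in EtOH-fed animals at 6 h and higher in untreated animals at the other times. miR-451 stood at 9.87, 9.33, and 9.38 log2 CPM in the CHO-fed group and 9.31, 8.76, and 9.17 in the EtOH-fed group at 6 h, a difference of -0.45 (95% confidence interval -1.07 to 0.18, limma adjusted p = 0.669). Each EtOH-fed animal was below each CHO-fed one, though by little at the nearest pair, 9.33 and 9.31. miR-144 stood at 10.37, 9.68, and 10.14 against 9.72, 9.08, and 9.52, a difference of -0.62 (-1.42 to 0.17) with a slight overlap.

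At 0 h the differences of miR-451 and miR-144 were 0.23 and 0.51, at 24 h 1.31 and 1.18, and at 72 h 1.06 and 1.12. Only miR-451 at 24 h passed the test for diet (limma adjusted p = 0.0188). In animals given saline or AM21, an antisense oligonucleotide to miR-21, the differences at 24 h were smaller, at 0.36 and 0.49 for miR-451 and 0.80 and 0.14 for miR-144. At 0 h they were 0.79 and 0.02 for miR-451 and 0.99 and -0.37 for miR-144, so miR-144 was lower in EtOH-fed animals there under AM21. The difference of miR-451 at 6 h minus that at 24 h was -1.75 with a standard error of 0.43, and this had the smallest adjusted p of all 143 miRNAs in that comparison, 0.0643, which missed the threshold. For miR-144 it was -1.80 with a standard error of 0.54 (limma adjusted p = 0.210). All animals at 6 and 72 h are numbered in set 4 and those at 0 and 24 h in sets 1 to 3, so in these contrasts with 0 and 24 h the time and the numbered set cannot be told apart. The 2 miRNAs are printed with their places, since mature miR-144 at chr10:63459446-63459465 and miR-451 at chr10:63459585-63459606, both on the plus strand of GRCr8, lie next to each other.
miR-451: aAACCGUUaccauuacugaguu
miR-144: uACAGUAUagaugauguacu
Their summed level at 6 h was 1465 to 2257 CPM in the CHO-fed group and 972.4 to 1480 CPM in the EtOH-fed group. Whether blood left in the tissue had a part in this was not tested.

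**Figure D3:**
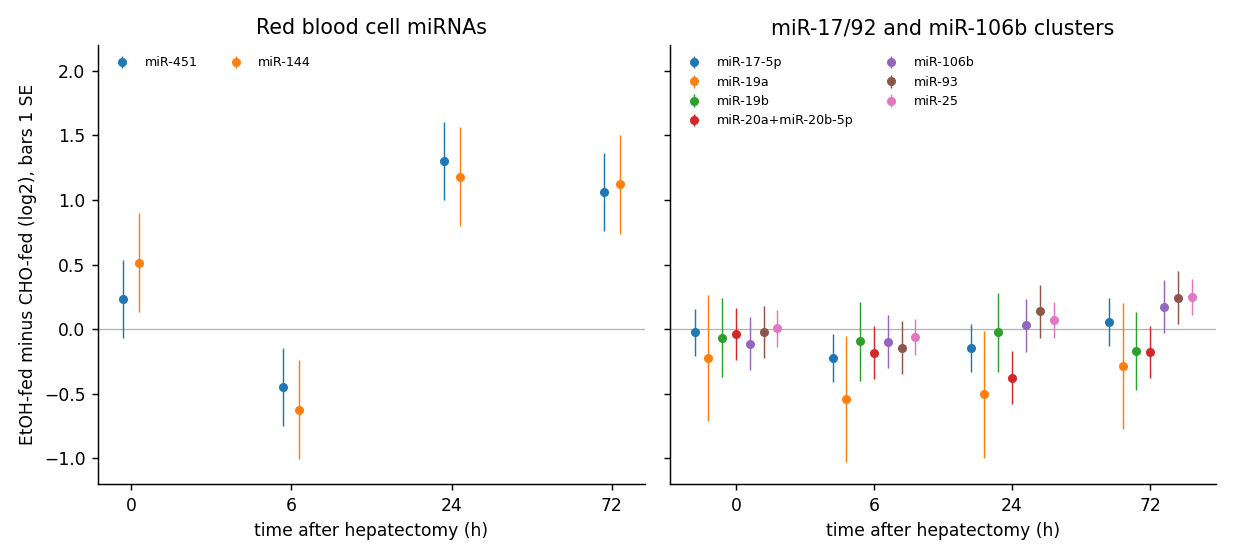
Level in EtOH-fed minus CHO-fed untreated animals (log2) at each time after PHx, in hours, for the red blood cell miRNAs (left) and the 7 probes of the miR-17/92 and miR-106b clusters (right); points are differences of group means (n = 3 per diet and time) and bars 1 standard error. miR-451 and miR-144 lie below 0 at 6 h and above 0 at 0, 24 and 72 h, and all 7 cluster probes lie below 0 at 6 h.

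Markers of other cell types differed as follows at 6 h. Of the 4 measured leukocyte miRNAs, 3 were higher and 1, miR-150, lower, at -0.23, with a summed level of 3208 to 4640 CPM in the CHO-fed group and 3236 to 3794 CPM in the EtOH-fed group. The endothelial miR-126 differed by -0.18. Of the 4 stellate and other mesenchymal markers, 2 were higher and 2 lower, from miR-199a-5p at -0.22 to miR-199a-3p at 0.31. The biliary markers miR-200b and miR-429 were lower, at -0.10 and -0.34, and each had overlapping groups. Their summed level was 755.3 to 854.8 CPM in the CHO-fed group and 616 to 748 CPM in the EtOH-fed group. These sums were apart only narrowly, by 755.3 against 748. The muscle miRNAs miR-1 and miR-206 differed by -0.01 and -0.33. None of these passed the test, and their part in the other differences was not tested.

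To see whether the diet differences at 6 h were also present in other animals, the same contrast was set beside that of untreated animals at 0, 24, and 72 h, which share no animal with it. Of the 13 miRNAs with an unadjusted p under 0.05 at 6 h, 12 had the same sign at 0 h, 11 at 24 h, and 9 at 72 h. How many of all 143 miRNAs kept their sign was not counted, so these numbers are not read as a trait of the 13. Across the 143 miRNAs, which are not independent of each other, the differences at 6 h had a correlation of r = 0.61 with those at 0 h, 0.39 with those at 24 h, and 0.10 with those at 72 h. As a description only, the 6 h pattern was thus nearest to that at 0 h. Total counts were higher on average in EtOH-fed animals at each of these times, with ratios of 1.55, 1.31, 1.20, and 1.18 at 0, 6, 24, and 72 h, and this gap is shared by the points.

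**Figure D4:**
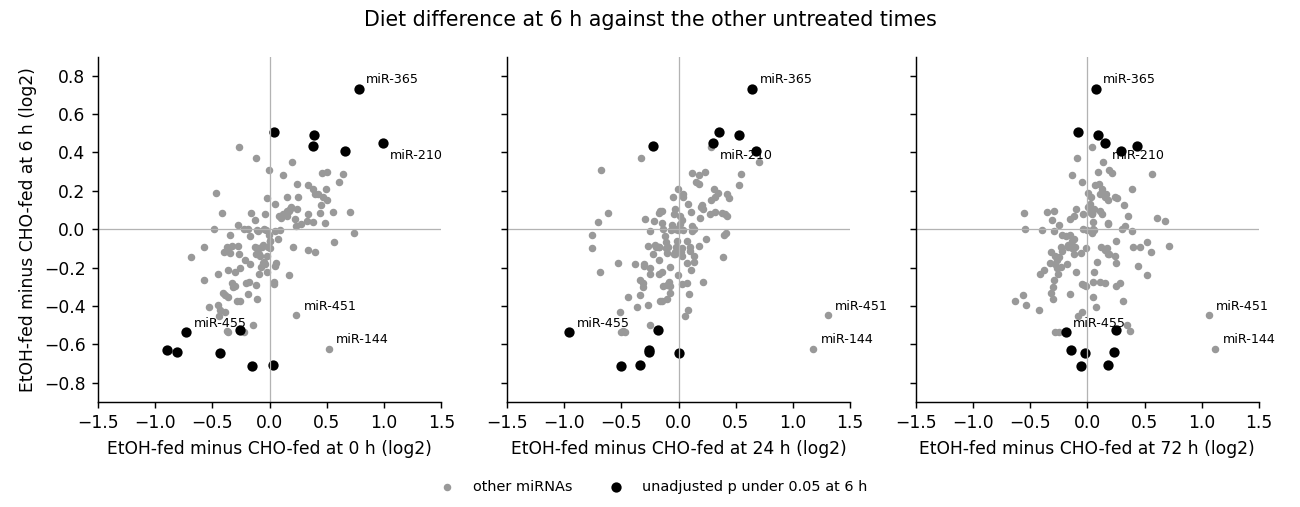
Level in EtOH-fed minus CHO-fed animals at 6 h (log2, vertical) against the difference at 0, 24 and 72 h (log2, horizontal, from left to right) for 143 miRNAs; each point is 1 miRNA, black where the unadjusted p at 6 h was under 0.05. The points follow a slope at 0 h (r = 0.61) and scatter without one at 72 h (r = 0.10), and miR-451 and miR-144 lie apart at the lower right.

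Several of the miRNAs that led at 6 h passed the test at another time. At 0 h 3 miRNAs were called (2.10% of the 143), and they were miR-210, miR-365, and miR-103, higher in EtOH-fed animals by 0.99, 0.78, and 0.66. At 24 h 3 were called (2.10%), miR-451, miR-103, and miR-455, with differences of 1.31, 0.68, and -0.95, and at 72 h 0 were called (0%) and 14 had an unadjusted p under 0.05. For miR-365 the 24 h difference of 0.65 had a limma adjusted p of 0.0607, and the 72 h difference was 0.07. With saline and AM21 the miR-365 difference was 0.60 and 0.25 at 0 h, and only 0.04 and 0.20 at 24 h. miR-455 was lower at each of the 4 times, at -0.73 at 0 h and -0.19 at 72 h, and miR-103 was higher in untreated animals at each, at 0.30 at 72 h. Of these, miR-455 is weakly counted and did not pass a filter of at least 50 counts in at least 3 animals. Nor did miR-582, miR-598-5p, and miR-326, of the lower side at 6 h. With saline, miR-103 differed by -0.04 at 0 h and 0.07 at 24 h.

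At every time, only a minority of miRNAs had groups that did not overlap. The groups did not overlap at 0 h for 10 miRNAs on the higher side (6.99%) and 13 on the lower (9.09%), at 24 h for 18 (12.6%) and 14 (9.79%), and at 72 h for 18 (12.6%) and 8 (5.59%). Of the 20 that did not overlap at 6 h, 8 did not overlap in the same direction at 0 h, namely miR-365, miR-210, miR-103, miR-409-3p, miR-148b-3p, miR-455, miR-582, and miR-3594-5p, and 0 in the opposite one. At 24 h 8 did so, namely miR-365, miR-210, miR-103, miR-455, miR-181a, miR-19a, miR-374, and the probe for miR-20a and miR-20b-5p, with miR-451 opposite. At 72 h 3 did so, namely miR-181a, miR-409-3p, and the miR-20a and miR-20b-5p probe, with miR-374 opposite.

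Counting also the animals given saline or AM21 at 0 and 24 h, the diets can be compared in 8 sets of animals. The difference was above 0 in all 8 for 7 miRNAs (4.90% of the 143) and below 0 in all 8 for 11 (7.69%). The first were miR-365, miR-210, miR-151, miR-152, miR-192, miR-194, and miR-30e. The second were miR-455, miR-582, miR-598-5p, miR-3594-5p, miR-139-5p, miR-150, miR-199a-5p, miR-532-5p, miR-539, let-7b, and the probe for miR-20a and miR-20b-5p. Among them, miR-455, miR-582, and miR-598-5p are weakly counted and did not pass the count filter. In the 7 sets other than 6 h, the difference of miR-365 ran from 0.04 to 0.78, that of miR-210 from 0.15 to 0.99, and that of miR-455 from -0.95 to -0.19. That of miR-103 ran from -0.04 to 0.68 and was above 0 in 6 of the 7. miR-378 was less steady, at -0.08 to 0.35, and miR-743b kept its direction in 3 of the 7.

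No miRNA was called for a diet difference at 6 h that differed from that at another time. The F test over the 3 contrasts called 0 miRNAs (0%), with an adjusted p of 0.235 or more by limma, and 8 had an unadjusted p under 0.05. Taken singly, the contrast with 0 h gave 3 miRNAs an unadjusted p under 0.05, with adjusted p-values from 0.988 upward, that with 24 h gave 7, from 0.0643 upward, and that with 72 h gave 8, from 0.259 upward. For miR-365 the difference at 6 h exceeded that at 72 h by 0.66 with a standard error of 0.26 (limma adjusted p = 0.501), so its smaller value at 72 h was not shown to differ from that at 6 h.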

How the data were processed

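Liver RNA of 48 rats was measured with the NanoString nCounter miRNA assay, which counts barcoded probes without amplification. For 143 miRNAs the authors deposited log2 CPM values, after scaling by the trimmed mean of M-values and the voom transformation, whose pseudocount is 0.5. The paper describes a larger panel, and its other miRNAs are not covered here. Where list members are said to be measured, they are among these 143. Control probes were not used here. Whole counts were recovered from the log2 CPM values (largest distance from a whole number 5.5e-05) and used for depth and for alternatives. Totals of the 24 untreated animals were 58168 to 267582, with a median of 154876.5. At 6 h, 39 to 67 of the 143 miRNAs had under 50 counts in an animal, and there counting error adds to the spread.

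The deposited log2 CPM of the 24 untreated animals (8 groups of 3) were fitted with limma 3.58.1 in R 4.3.3 as 1 mean per group, so that all groups share the estimate of the spread (16 residual degrees of freedom). Contrasts were EtOH-fed minus CHO-fed at 6 h and its difference from that at 0, 24, and 72 h, singly and as an F test, adjusted over 143 miRNAs by the Benjamini-Hochberg method and called under 0.05. The steps were tested on simulated data. The miRNAs described singly are the 15 with the smallest unadjusted p, miR-21, miR-122, and members of the marker and family lists, of which lists over 5 members are given by their extremes. miR-107, the members printed for a shared seed, miR-17-5p, and the miRNAs named only for not overlapping or for keeping 1 direction were added after their values were seen. Members and lists were chosen with earlier results of these data known. The samples are labelled as separate animals. For sequences, names without an arm were matched to the arm that the bare name stood for in older miRNA registries, except miR-455 and miR-743b, which were not looked up. Of 26 miRNAs looked up, 25 were found in RefSeq (GRCr8). Alternatives were other scalings, a count filter, voom weights, other priors, other sets of animals, total count as a covariate, a replicate block, and leaving out each animal. Plots used Python 3.11.15 with matplotlib 3.10.9.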

Additional observations from a re-analysis of the deposited data

How the results depend on the processing

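The number of miRNAs called for diet at 6 h was 0 with the deposited values and 1, miR-365 each time, with voom weights (adjusted p = 0.0387 by limma), with a prior that follows the level (0.0351), and with all 48 animals in the fit (0.0234). With 1 animal left out it was 0 to 1, the call being miR-365 without the CHO-fed animal 4_3 (0.0241). Over 18 alternatives the difference of miR-365 was 0.65 to 0.88, its adjusted p 0.0234 to 0.537, and its unadjusted p under 0.05 in 18. The highest was without the CHO-fed animal 4_1, and a fit on the 6 animals alone, with 4 residual degrees of freedom, gave 0.325. The number of miRNAs at an unadjusted p under 0.05 was 7 with CPM computed without miR-122 and 8 to 14 with 1 animal left out (8 without the CHO-fed 4_1 or 4_2). The number whose groups did not overlap was 27 to 44 with 1 animal left out, which leaves 2 against 3 animals (44 without the CHO-fed 4_3, 37 without the EtOH-fed 4_6, and 35 without the EtOH-fed 4_5). The animals at 6 h share no numbers between diets and cannot be paired; with the numbers of sets 1 to 3 as a replicate block in the other groups, 0 were called, 14 had an unadjusted p under 0.05, and the adjusted p of miR-365 was 0.0529. The interaction of diet and time had 0 calls in each setting run. The median difference of all miRNAs was -0.06 to -0.10 under other scalings and -0.11 to -0.03 with 1 animal left out. Of the alternatives for single miRNAs, 298 kept direction and side of the threshold and 4, all of miR-365, passed it. The limma adjusted p of the others was 0.470 or more in the main fit, far from the threshold. Keeping its side therefore says little about how steady a difference was. That of miR-21 ran from 0.06 to 0.48 and that of miR-3561-3p from -0.94 to -0.28. Having 3 animals per diet and counts under 50 for many probes limit what could be called. The p-values of the main fit set each difference against a spread pooled over the 24 untreated animals, and not that of the 6 compared animals alone.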
